A study of Capra hircus with 36 samples.

Results

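The let-7 family and its relative miR-98 were described in small RNA libraries of goat tissues. Members were the mature miRNAs listed as let-7a to let-7g, let-7i or miR-98, on either arm of the precursor, with names marked as new miRNAs left out. Of 1391 mature miRNAs, 15 met this rule: let-7a, let-7c, let-7d, let-7e, let-7f, let-7g and let-7i, each with a 5p and a 3p name, and chi-miR-98-3p. Neither let-7b nor chi-miR-98-5p was analysed here, so family totals are sums over the names listed. Counts of chi-let-7a-5p and chi-let-7a-3p were summed, for the reason given with their values, and the sum is called let-7a. This left 14 members among 1390 features. The 7 guide forms were let-7a and the 5p names of the other let-7 members, and the 7 remaining members were 6 let-7 3p names and chi-miR-98-3p.

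As background, let-7 miRNAs are short RNAs that lower the output of target messages, among them those of RAS genes, MYC, HMGA2 and other promoters of growth, and they are abundant in differentiated adult tissue. LIN28 proteins block the maturation of many let-7 precursors, and let-7 in turn lowers LIN28. The mature let-7 miRNAs and miR-98 share a seed, the stretch near the 5′ end that pairs with targets, and for these precursors the 5p strand is the usual guide and the 3p strand the usual passenger.

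The libraries came from 3 Tibetan Goat females living at 3000 m (high altitude) and 3 Chuandong White Goat females living at 600 m (low altitude), all adult, with a labelled age over 3 years. From each goat, spleen, longissimus muscle, lung, heart, liver and kidney were taken, which gave 36 libraries in 12 groups of 3. Breed and altitude differed together and cannot be told apart, and each value is of whole tissue. By the paper's description rearing also differed, with stocking or nomadism at high and home rearing at low altitude. Mean body weight was lower in the high-altitude goats. Total counts ran from 7312782 to 14407748 in the high-altitude libraries and from 7108635 to 13537937 in the low-altitude libraries. Levels are given in RPM, the usual unit of counts scaled to a library's sum over all mature miRNAs, and 3 counts, the upper limit that a count of 0 allows, equalled 0.208 to 0.422 RPM. Such limits cover counting error only.

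The tissue labels were checked against marker miRNAs. The hepatocyte miRNA miR-122-5p had 6118 to 179917 RPM in liver and at most 208 RPM elsewhere. Levels of the heart miRNA miR-208b-3p, encoded in a myosin gene, ran from 10283 to 16711 RPM in heart and reached 3445 RPM elsewhere, in muscle. The skeletal muscle miRNA miR-206-3p had 45.9 to 7759 RPM in muscle and at most 8.72 RPM in other tissues. Each of these 3 markers was above every library of the other tissues. The same held for miR-34c-5p of ciliated cells in lung, at 1914 to 10181 RPM against at most 44.5, and for the leukocyte miRNA miR-142-3p in spleen, at 3491 to 4883 RPM against at most 602. The whole lists summed to 17014 to 23967 RPM in heart for the 3 heart markers, to 2145 to 10664 RPM in lung for the 3 of 4 ciliated-cell markers listed, and to 182812 to 288443 RPM in muscle for the 3 muscle markers, which also reached 208016 in heart. The 5 leukocyte markers summed to 17602 to 67519 RPM in spleen and reached 22824 in liver, so their sum did not set spleen apart. Kidney was not set apart by its list, of which 2 of 3 were listed: miR-194-5p had 1192 to 4518 RPM in kidney and up to 22911 in liver, and miR-204-5p had 379 to 1298 RPM in kidney and up to 1175 in liver.

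The 5p and 3p names of let-7a exchanged their counts between libraries. In 16 libraries chi-let-7a-5p was at 0, while chi-let-7a-3p had 9869 to 139877 counts. In the other 20 libraries chi-let-7a-5p had 6882 to 113781 counts and chi-let-7a-3p had 56 to 1556, or 0.0890% to 3.24% of the counts of both names. No library had more than 1556 counts under both names. The libraries with chi-let-7a-5p at 0 were spread over both altitudes, 9 high and 7 low, and over 5 tissues. In heart they were 1 high-altitude and 2 low-altitude libraries, in liver 2 and 3, in lung 3 and 2, in muscle 2 and 0, and in spleen 1 and 0. Kidney had none. The mature sequence listed for chi-let-7a-3p in the study's qRT-PCR primer list, shown because it is the one printed there under that name, was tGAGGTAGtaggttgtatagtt, with bases 2 to 8 from the 5′ end in capitals. This 22-base sequence carries the seed GAGGTAG, which as background is the let-7 guide seed. No sequence was read for the other members.

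**Figure D1:**
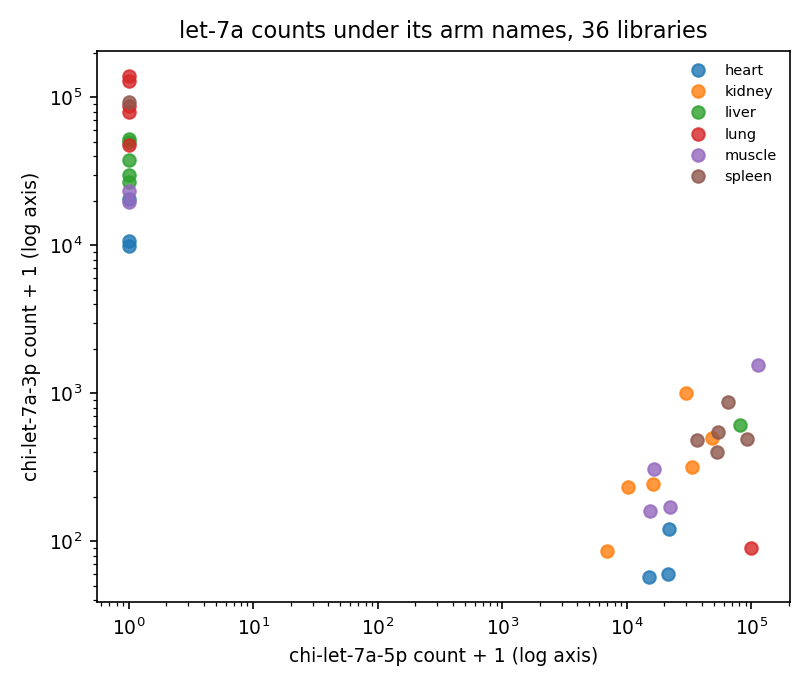
Counts of chi-let-7a-5p (x axis) and chi-let-7a-3p (y axis), each plus 1 on a log axis, in the 36 libraries, coloured by tissue. The 16 libraries at the left edge had 0 counts of chi-let-7a-5p, and the other 20 lie at low counts of chi-let-7a-3p.

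let-7e did the same in fewer libraries. chi-let-7e-5p was at 0 in 3 libraries, high heart 1, low heart 1 and high liver 1, where chi-let-7e-3p had 802 to 3379 counts. In the other 33 libraries chi-let-7e-5p had 365 to 9121 counts and chi-let-7e-3p had 13 to 168. Of 482 precursors with both arms listed, 99 had at least 100 counts over both arms in every library, and 3 of these, let-7a, let-7e and miR-107, held at least 90% on the 5p name in 1 library and at least 90% on the 3p name in another. Results for chi-let-7e-5p and chi-let-7e-3p are therefore also given for their sum, an alternative chosen after seeing the data. let-7 members differ from each other by few bases, so the assignment of reads among near-identical members is uncertain.

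Summed over all members, the family was most abundant in RPM in liver, spleen and lung. The lowest, median and highest of 6 libraries were 21498, 45001 and 97195 RPM in liver, 23960.5, 42722 and 74773 RPM in spleen and 27829, 39736 and 61859 RPM in lung. In muscle they were 9275, 13986 and 56255 RPM, in kidney 5254, 13006 and 35088 RPM and in heart 9509, 15092 and 26034 RPM. Means were 47736 ± 26654 RPM (SD, n = 6) in liver, 46133 ± 19071 RPM in spleen, 43259 ± 14271 RPM in lung, 19989.6 ± 17951 RPM in muscle, 15837 ± 11252 RPM in kidney and 15765 ± 6657 RPM in heart. Neighbours in this order differed by less than 1 SD of either tissue, except lung and muscle. The gap between these in RPM exceeded both SDs while their ranges overlapped. The TMM scaling factors used in the tests below ran from 0.629 to 0.783 in muscle and from 0.802 to 1.72 in lung. Dividing by them raises muscle and lowers most lung libraries, so this gap is stated for RPM only. No tissue means of the total are given on that scale. The order of the RPM means held without goat low 1 alone. Without goat high 2 the means were 45126 RPM in spleen, 39539 in lung, 37844 in liver, 13711.5 in heart, 12736.5 in muscle and 11987 in kidney. Lung stood above spleen without high 1 (45473 and 40406 RPM) and high 3 (46345 and 43488), and spleen above liver without low 2 (50568 and 48583) and low 3 (48505.5 and 47318), where heart also stood above kidney. Liver, spleen and lung stayed above the other 3 tissues without each goat. In bulk tissue, fewer cells of a type and less RNA per cell cannot be told apart. Goat high 2 had the highest family total of the 3 high-altitude goats in 5 of 6 tissues, all but spleen, and goat low 3 had the highest of the low-altitude goats in 5 of 6, all but heart.

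**Figure D2:**
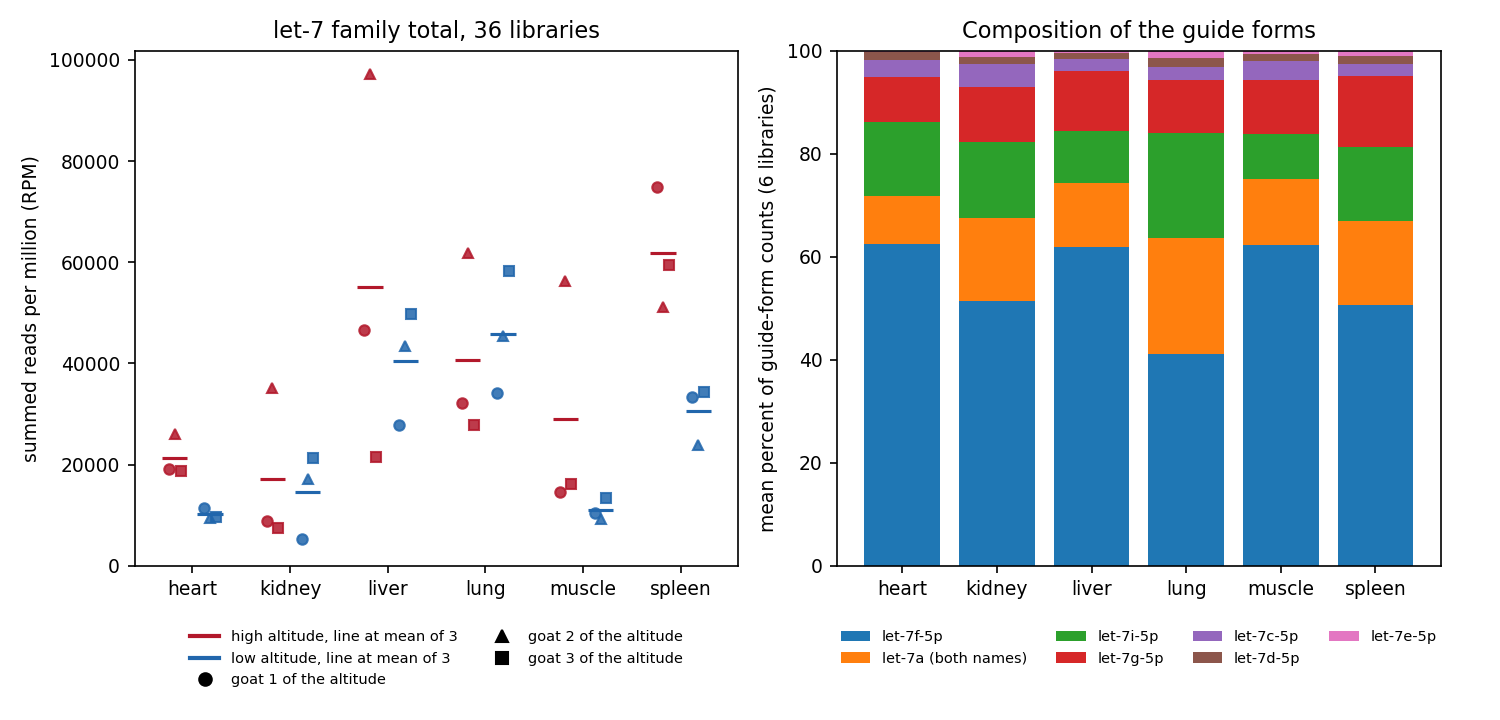
Left, family total in RPM for each library by tissue and altitude, with a line at the mean of 3 goats. Right, mean percent of the guide-form counts taken by each guide form in the 6 libraries of a tissue; let-7f is the largest share in each tissue.

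chi-let-7f-5p, which is well known in endothelial cells as a promoter of vessel growth, took the largest share of the guide-form counts. Over 36 libraries its mean share was 55.0%, followed by let-7a with 14.9%, chi-let-7i-5p with 13.7% and chi-let-7g-5p with 11.0%. chi-let-7c-5p had 3.11%, chi-let-7d-5p 1.42% and chi-let-7e-5p 0.839%. By tissue, its mean share was 62.5% ± 8.79 (SD, n = 6) in heart, 62.3% ± 9.23 in muscle and 61.9% ± 8.41 in liver, which differed by less than 1 SD of each, 51.3% ± 10.5 in kidney, 50.6% ± 14.5 in spleen and 41.2% ± 8.70 in lung. The members outside the guide forms held 0.967% to 4.23% of the family total, with a median of 1.70%. Most of that was chi-miR-98-3p, with a median of 1.28% of the family total and a range of 0.601% to 3.65%.

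The differences among tissues were tested with edgeR over all 36 libraries, with both altitudes weighted equally. Differences among the 6 tissues had an adjusted p under 0.05 for 5 of 7 guide forms and 5 of the 7 remaining members. Of all features, 39.5% passed, but these include many with few counts. Of the 711 features kept by edgeR's filter on low counts, 517 passed, and 5 of 7 guide forms was no higher a share. The percents of all features given below for single tissues and for altitude also include features with few counts. The guide forms that passed were let-7a (adjusted p = 8.02e-05), chi-let-7d-5p (0.00344), chi-let-7f-5p (0.00853), chi-let-7g-5p (8.57e-07) and chi-let-7i-5p (7.18e-07). Mean levels of these 5 spanned a factor of 3.69 for chi-let-7f-5p to 7.30 for chi-let-7i-5p between the highest and the lowest tissue. chi-let-7c-5p (adjusted p = 0.853) and chi-let-7e-5p (0.452) did not pass, and let-7e with both arms summed did (0.00668). Of the remaining members, chi-let-7i-3p (0.356) and chi-miR-98-3p (0.279) did not pass. The count of guide forms was 3 without goat high 1, without goat low 2 and without goat low 3, where 409, 412 and 420 of all features passed, against 549.

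Lung had the highest mean of let-7a, let-7c, let-7d, let-7e and let-7i. chi-let-7i-5p, known to target the innate immune receptor TLR4, had a lowest, median and highest level of 4018, 9254 and 16108 RPM in lung, against 845, 1154 and 1699 RPM in muscle, its lowest tissue. No lung library came as low as the highest muscle library. let-7a, which shares its mature sequence with the let-7 first found in the worm, had 4693, 9158 and 13532 RPM in lung and 799, 1441 and 1862 RPM in heart, again with no overlap. In lung against the mean of the other 5 tissues, edgeR called 4 of 7 guide forms higher, where 12.3% of all features were. For chi-let-7i-5p the log2 fold change was 1.34 (SE 0.18, adjusted p = 1.07e-06), and for let-7a it was 1.25 (SE 0.24, adjusted p = 0.000316); 6 of 6 lung libraries were above the median of the other tissues for each. chi-let-7d-5p, studied as a brake on lung fibrosis, had a log2 fold change of 0.91 (SE 0.27, adjusted p = 0.0162) in edgeR, with 5 of 6 lung libraries above that median. That of chi-let-7g-5p was 0.49 (SE 0.16, adjusted p = 0.0349) in edgeR, with 6 of 6. Without any 1 of the 6 goats the count was 2, let-7a and chi-let-7i-5p, where that of all features in lung was 148 to 176, against 237, and the adjusted p was 0.0703 to 0.204 for chi-let-7d-5p and 0.112 to 1 for chi-let-7g-5p. In these fits chi-let-7d-5p kept a log2 fold change of 0.70 to 0.86, while that of chi-let-7g-5p ran from 0.13 to 0.52, the lowest without goat high 3. With chi-let-7a-5p and chi-let-7a-3p kept apart the count was 2 as well. let-7e with both arms summed had 251, 568.3 and 886 RPM in lung and 50.9, 75.5 and 108 RPM in heart, and its edgeR log2 fold change in lung was 1.22 (SE 0.32, adjusted p = 0.00785), where the lowest lung library was above every heart library.

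Spleen had the highest mean of chi-let-7g-5p, with a lowest, median and highest level of 4749, 5384 and 6795 RPM, while heart had 842, 1229 and 1918 RPM. The lowest spleen library was above the highest heart, kidney and muscle libraries. In spleen edgeR called 4 of 7 guide forms higher (13.4% of all features), and all 4 had 6 of 6 spleen libraries above the median of the other tissues. The log2 fold change was 0.85 (SE 0.16, adjusted p = 0.000184) for chi-let-7g-5p, 0.65 (SE 0.19, adjusted p = 0.0124) for chi-let-7i-5p, 0.71 (SE 0.25, adjusted p = 0.0445) for let-7a and 0.75 (SE 0.27, adjusted p = 0.0488) for chi-let-7d-5p. The count was 1 without goat high 1, low 1 or low 2, and 2 without goat high 3 or low 3, while of all features edgeR called 184 to 219 in spleen with 1 goat left out, against 275. chi-let-7g-5p passed without each goat, with an adjusted p of 0.000957 to 0.0169. The adjusted p of chi-let-7i-5p was 0.410 without goat high 1, 0.0630 without low 1 and 0.299 without low 2. For let-7a and chi-let-7d-5p, each goat but high 2 ended the call when left out, at adjusted p up to 0.417 and 0.584. With 1 goat left out, the spleen log2 fold change was 0.36 to 0.77 for chi-let-7i-5p, 0.45 to 0.87 for let-7a and 0.44 to 0.96 for chi-let-7d-5p. With the arms of every precursor summed, the count was 2, where edgeR called 198 of 909 features, against 275 of 1390. The lost calls then had log2 fold changes of 0.61 for let-7a and 0.55 for let-7d. With the arms of let-7e summed, chi-let-7d-5p did not pass in edgeR (adjusted p = 0.0504), at a log2 fold change of 0.75.

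Liver had the highest mean of chi-let-7f-5p. Its lowest, median and highest levels were 11894, 27417 and 72937 RPM in liver and 2510.4, 5491 and 23895 RPM in kidney, the lowest tissue, and these ranges overlapped through the library of goat high 2 in kidney. In liver edgeR called 2 of 7 guide forms higher (10.9% of all features). The log2 fold change was 0.84 (SE 0.24, adjusted p = 0.0128) for chi-let-7f-5p, with 5 of 6 liver libraries above the median of the other tissues, and 0.63 (SE 0.16, adjusted p = 0.00527) for chi-let-7g-5p, with 6 of 6. Both calls ended without goat high 1 (adjusted p = 0.0503 and 0.0763), without low 2 (0.0784 and 0.0937) and without low 3 (0.162 and 0.0914), which left a count of 0 in edgeR. In these 3 fits chi-let-7f-5p had log2 fold changes of 0.83, 0.77 and 0.64, chi-let-7g-5p had 0.58, 0.57 and 0.51, and edgeR called 152, 157 and 169 of all features, against 220.

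Kidney stood low for most guide forms. chi-let-7d-5p had 57.8, 184 and 358 RPM as its lowest, median and highest level there, and chi-let-7g-5p had 659, 1458 and 2454 RPM. All 6 kidney libraries were below the median of the other tissues for both. In kidney edgeR called 5 of 7 guide forms lower (3.96% of all features). The log2 fold change was -0.99 (SE 0.18, adjusted p = 0.000137) for chi-let-7g-5p, -1.06 (SE 0.28, adjusted p = 0.00604) for chi-let-7f-5p, -1.14 (SE 0.31, adjusted p = 0.00846) for chi-let-7d-5p, -0.75 (SE 0.21, adjusted p = 0.00994) for chi-let-7i-5p and -0.82 (SE 0.28, adjusted p = 0.0454) for let-7a. chi-let-7f-5p and chi-let-7i-5p were below the median of the other tissues in 5 of 6 libraries, and let-7a in 6 of 6. The count was 3 without goat high 2, 1 without low 1 and 3 without low 2, and chi-let-7g-5p passed without each goat. Without low 1 the adjusted p was 0.0927 for chi-let-7d-5p and 0.0535 for chi-let-7f-5p. That of chi-let-7i-5p was 0.0771 without high 2, 0.133 without low 1 and 0.210 without low 2, and that of let-7a was 0.0564 to 0.370 over the 6 goats left out. With 1 goat left out, kidney log2 fold changes were -1.19 to -0.90 for chi-let-7d-5p, -1.16 to -0.90 for chi-let-7f-5p, -0.83 to -0.55 for chi-let-7i-5p and -0.96 to -0.56 for let-7a, and the count over all features was 176 to 201, against 220. Scaled by library size only, the count was 1, and of all 1390 features 46 were called lower, against 55 with TMM. The calls lost by this scaling had log2 fold changes of -0.84 for let-7a, -1.107 for chi-let-7d-5p, -1.001 for chi-let-7f-5p and -0.75 for chi-let-7i-5p. Their edgeR adjusted p was 0.0594 to 0.129.

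In heart edgeR called 2 of 7 guide forms lower (5.11% of all features), with 6 of 6 heart libraries below the median of the other tissues for both. The log2 fold change was -1.26 (SE 0.29, adjusted p = 0.00243) for let-7a and -0.79 (SE 0.18, adjusted p = 0.00194) for chi-let-7g-5p, and both passed without each goat. With the names of let-7a kept apart, the count was 1. By DESeq2 it was 3, where of all 1390 features DESeq2 called 145 lower and edgeR 71. let-7e with both arms summed was also lower in heart, with an edgeR log2 fold change of -1.45 (SE 0.40, adjusted p = 0.0100) and its highest heart library at 108 RPM. In muscle edgeR called chi-let-7i-5p alone, 1 of 7, lower (8.06% of all features), with a log2 fold change of -0.98 (SE 0.21, adjusted p = 0.000898) and 6 of 6 libraries below the median of the other tissues. That call ended without goat high 3 (adjusted p = 0.0545), low 2 (0.0615) and low 3 (0.0625), at a count of 0, with log2 fold changes of -0.69, -0.73 and -0.67 and 193, 193 and 189 of all features called, against 253. Scaled by library size only, 2 guide forms were called lower in muscle, as were 155 of all 1390 features, against 112 with TMM. In the opposite direction edgeR called 0 guide forms in each tissue, also at an unadjusted p under 0.05, and DESeq2 called 0; of all features edgeR called 6.4% lower in spleen, 4.89% in liver and 4.75% in lung, and 11.9% higher in kidney, 10.1% in muscle and 8.49% in heart.

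The scaling bears on these directions. Over the 307 miRNAs with a mean of at least 10 RPM, fold changes scaled by library size only lay a median of -0.50 (log2) from those scaled by TMM in heart, -0.63 in muscle, 0.40 in liver, 0.35 in lung and 0.44 in spleen. Among all features called, the percent higher went from 62.4% to 49.7% in heart, 55.7% to 38.5% in muscle, 69.1% to 85.1% in liver, 72.2% to 84.0% in lung and 67.6% to 81.8% in spleen. For high against low altitude the shift was 0.28 in heart, -0.11 in lung and -0.12 in muscle, and under 0.1 in size in the other tissues. None of the guide forms called in a tissue by edgeR reversed under RLE size factors or library size only.

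The 3p members, as background mostly passenger strands, followed other orders. chi-let-7d-3p had a lowest, median and highest level of 11.2, 18.1 and 312 RPM in muscle and 5.47, 9.18 and 15.8 RPM in lung, and chi-let-7f-3p had 16.7, 39.9 and 62.8 RPM in spleen and 4.52, 9.58 and 15.4 RPM in lung. Lung was thus lowest for both, while chi-let-7d-5p had its highest mean there. In lung edgeR called 2 of the 7 members outside the guide forms lower (4.75% of all features), with 6 of 6 libraries below the median of the other tissues. The log2 fold change was -1.64 (SE 0.45, adjusted p = 0.00886) for chi-let-7d-3p and -1.67 (SE 0.34, adjusted p = 0.000586) for chi-let-7f-3p, and both passed without each goat. Scaled by library size only, chi-let-7d-3p did not pass in lung by edgeR (adjusted p = 0.0658), at a log2 fold change of -1.345 (SE 0.506).

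In muscle 2 of 7 were called higher (10.1% of all features) and 1 lower (8.06%) by edgeR. The log2 fold change was 1.85 (SE 0.35, adjusted p = 0.000133) for chi-let-7d-3p, above the median of the other tissues in 4 of 6 libraries, 1.53 (SE 0.51, adjusted p = 0.0326) for chi-let-7c-3p, above it in 5 of 6, and -1.02 (SE 0.30, adjusted p = 0.0158) for chi-let-7g-3p, below it in 6 of 6. The chi-let-7d-3p call held without each goat, with a log2 fold change of 1.10 to 2.35. chi-let-7c-3p did not pass without goat high 1 (0.0576), high 2 (0.185) or low 2 (0.189), nor by library size only (0.497, adjusted p), with log2 fold changes of 1.43 to 2.04 over the 6 goats left out and 0.92 by library size only. chi-let-7g-3p did not pass without any goat but high 1, at adjusted p up to 0.395 and a log2 fold change of -1.01 to -0.66 over the 6 goats left out, nor with RLE size factors (0.0599) or with the let-7a names kept apart (0.0987).

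In heart 3 of 7 were called higher by edgeR (8.49% of all features). chi-let-7c-3p had 7 to 19 counts in the heart libraries, with 0.567, 1.18 and 1.53 RPM as its lowest, median and highest level, and it was at 0 in 1 of the 36 libraries, high spleen 1, which allows up to 0.410 RPM. Its log2 fold change was 1.64 (SE 0.51, adjusted p = 0.0242), with 6 of 6 heart libraries above the median of the other tissues, and the adjusted p was 0.0558 to 0.170 with 1 of the 6 goats left out, at a log2 fold change of 1.503 to 1.73, and 0.314 by library size only, at 1.14. That of chi-let-7g-3p was 0.94 (SE 0.26, adjusted p = 0.0116) in edgeR, with 5 of 6, and it did not pass without goat high 2 (0.0519), low 1 (0.136), low 2 (0.0920) or low 3 (0.0572), with log2 fold changes of 0.89 to 1.04 over the 6 goats left out, nor by library size only (0.873, at 0.42). chi-let-7e-3p had a log2 fold change of 2.45 (SE 0.57, adjusted p = 0.00223) in edgeR, yet 2 of 6 heart libraries were above the median of the other tissues, the ones where chi-let-7e-5p was at 0. With goat as a block its log2 fold change was 1.51 (adjusted p = 0.154), and without goat low 1 it was 0.99 (adjusted p = 0.687). DESeq2 gave it a log2 fold change of 2.41 (SE 0.64) and no adjusted p.

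chi-miR-98-3p, the listed strand of the miR-98 precursor, had the smallest ratio of highest to lowest tissue mean, 2.69, apart from chi-let-7c-5p, with 2.44. Its mean level was 568.4 ± 161 RPM (SD, n = 6) in spleen, 487 ± 167 RPM in liver, 456 ± 154 RPM in lung, 399.8 ± 245 RPM in kidney, 211 ± 55.8 RPM in heart and 211 ± 68.2 RPM in muscle. Neighbours in this order differed by less than 1 SD of either tissue, except kidney and heart, whose gap exceeded the SD of heart and not that of kidney. chi-let-7c-5p had means of 1103 RPM in lung, 942 in liver, 862 in spleen, 659 in kidney, 597 in muscle and 453 in heart, with overlapping ranges between each pair of neighbours.

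The comparison of high with low altitude asked which members differed between the populations within each tissue. The family total in heart was 19198, 26034 and 18775 RPM in the high-altitude goats and 11409, 9509 and 9666 RPM in the low-altitude goats. In muscle it was 14642, 56255 and 16098 against 10337, 9275 and 13329.6 RPM, and in spleen 74773, 51172 and 59362 against 33261, 23960.5 and 34273 RPM. In these 3 tissues every high-altitude library was above every low-altitude library. Kidney had 8909.7, 35088 and 7393 against 5254, 17102 and 21277 RPM, liver 46501, 97195 and 21498 against 27894, 43500.1 and 49825, and lung 32189.5, 61859 and 27829 against 34099.6, 45373 and 58204, and the groups overlapped in each. With 3 goats against 3 an exact two-sided permutation test cannot go below 0.1, so totals and shares are given with no test.

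chi-let-7f-5p made up most of these differences. In heart it had 13199, 18612 and 12637 RPM at high and 6189, 4847 and 5296 RPM at low altitude. Muscle libraries had 10314, 39578 and 10964 RPM against 5295, 5046 and 7087, and spleen libraries had 44762, 32631 and 37366 against 14364, 6959 and 13641. The high-altitude libraries were all above the low-altitude libraries in these 3 tissues, where 8.13%, 3.17% and 4.46% of all features were separated upward. In kidney the levels were 4238, 23895 and 3963 RPM against 2510.4, 6744 and 8707, in liver 30744, 72937 and 11894 against 14464, 25114 and 29720.4 and in lung 13693, 28516 and 15164 against 11359, 15951 and 18984. The groups overlapped in these 3 tissues. In kidney goat high 2 was the 1 high-altitude goat above every low-altitude goat. chi-let-7f-5p was also the guide form with the smallest edgeR p in kidney.

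**Figure D3:**
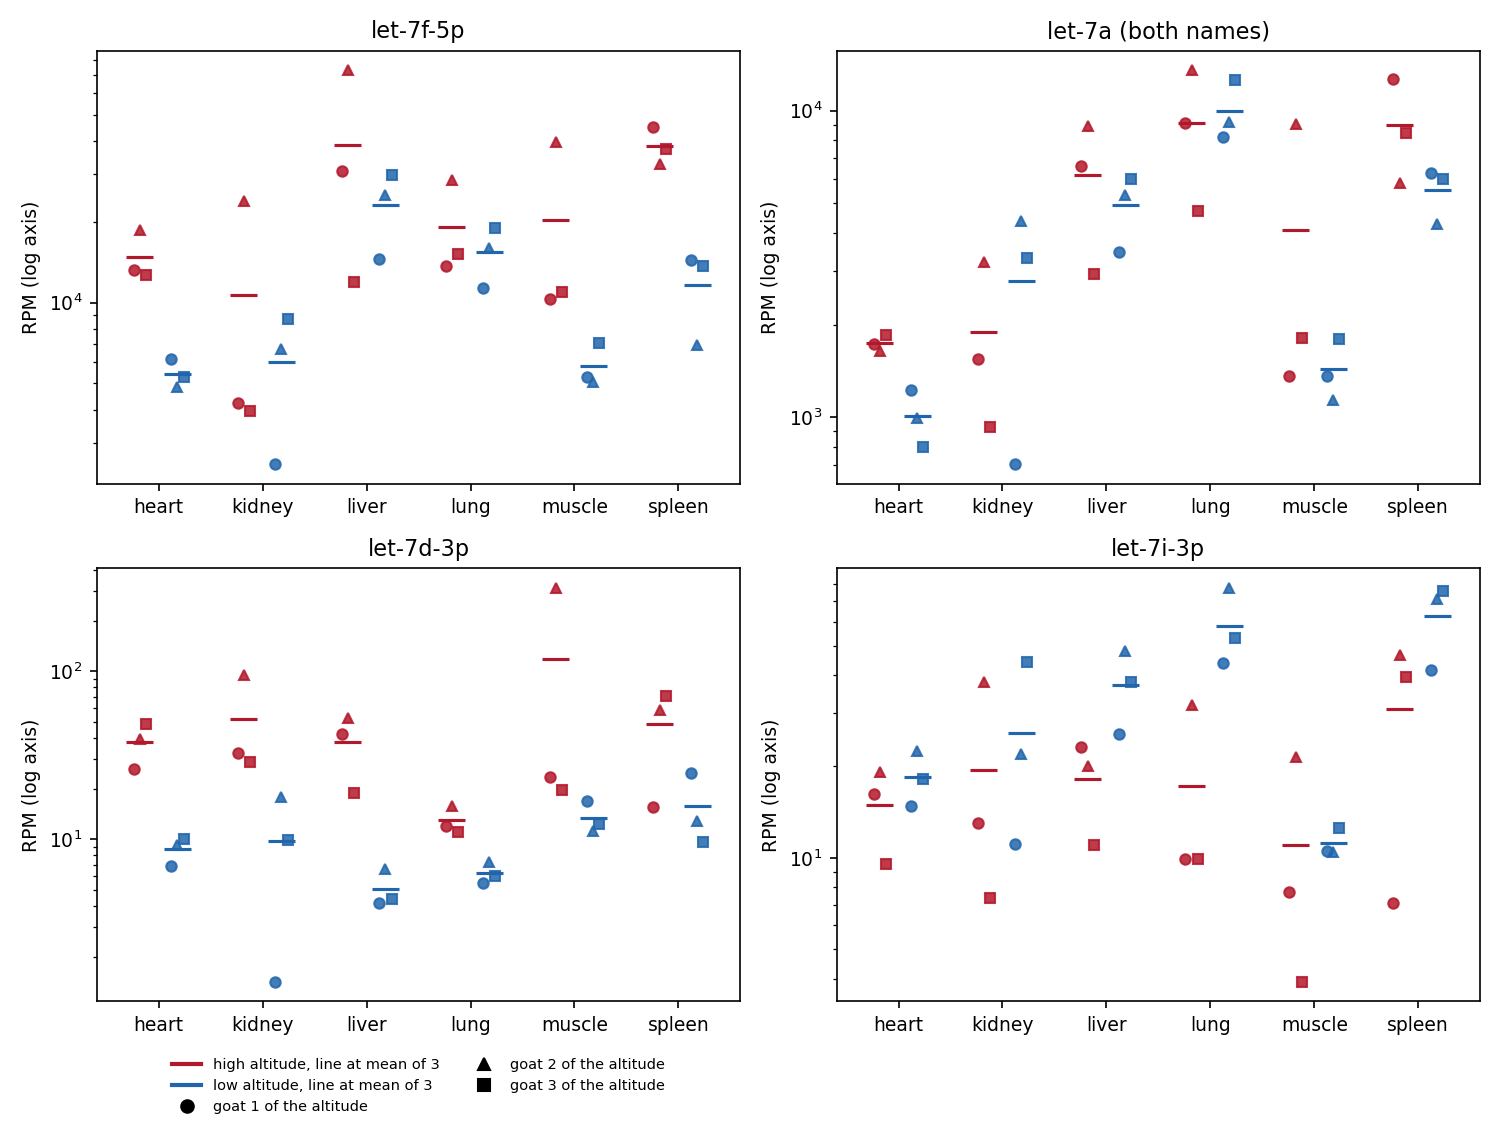
RPM on a log axis of chi-let-7f-5p, let-7a (both names summed), chi-let-7d-3p and chi-let-7i-3p in each tissue, with 3 high-altitude and 3 low-altitude goats and a line at the mean of 3. chi-let-7f-5p is separated in 3 of 6 tissues and chi-let-7d-3p in 5 of 6.

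By edgeR, 0 of 14 members passed both thresholds, a log2 fold change of 1.5 or more in size and an adjusted p under 0.05, in any tissue. Of all 1390 features, 0% passed in heart, kidney, liver and lung, 0.0719% in muscle and 0.144% in spleen. At an unadjusted p under 0.05, edgeR had 2 of 7 guide forms in muscle, 2 in spleen, 1 in heart, 1 in lung and 0 in kidney and liver, against 6.33%, 5.68%, 6.76%, 4.82%, 4.68% and 4.24% of all features. Of the 7 remaining members it had 2 in lung, 2 in liver, 1 each in heart, kidney and muscle, and 0 in spleen. The highest liver log2 fold change of these members was 5.35. In liver chi-let-7e-3p stood at 429.6 RPM in high liver 1, where chi-let-7e-5p was at 0, against a tissue median of 4.53. DESeq2 called 1 guide form, chi-let-7f-5p in spleen, and of the remaining members chi-let-7d-3p in 3 tissues and chi-let-7i-3p in 1. Over all features DESeq2 called 36 in heart, 36 in spleen, 31 in kidney, 31 in liver, 30 in muscle and 21 in lung. The edgeR log2 fold change of chi-let-7f-5p was 1.73 (SE 0.37, adjusted p = 0.342) in spleen, 1.79 (SE 0.47, adjusted p = 0.694) in muscle and 1.15 (SE 0.29, adjusted p = 0.393) in heart, with 3 of 3 high-altitude libraries above all low-altitude libraries. In spleen DESeq2 gave 1.79 (SE 0.47, adjusted p = 0.00409). In heart it gave 1.25 (SE 0.33, adjusted p = 0.00292), under the minimum fold change. In muscle the altitude contrast from 1 edgeR fit over all 36 libraries gave 1.71 (SE 0.48, adjusted p = 0.0478), and this fit called 36 of all 1390 features in muscle, where the fit within muscle called 1. The edgeR values were 0.70 (SE 0.48, adjusted p = 0.960) in kidney, 0.68 (SE 0.52, adjusted p = 0.744) in liver and 0.45 (SE 0.36, adjusted p = 0.878) in lung. Without goat high 2 the log2 fold change was 0.048 in kidney, 0.27 in liver and 1.21 in muscle.

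Other guide forms under an unadjusted p of 0.05 in edgeR were chi-let-7e-5p in muscle and spleen and chi-let-7c-5p in lung. chi-let-7e-5p had 69.5, 686 and 70.6 RPM at high and 56.9, 51.3 and 78.3 RPM at low altitude in muscle, and 725, 461 and 503 against 324, 204 and 317 RPM in spleen. The muscle library of goat high 2 was far above the others, and the muscle groups overlapped, while the spleen groups were separated. The edgeR log2 fold change was 2.02 (SE 0.83, adjusted p = 0.736) in muscle and 1.01 (SE 0.41, adjusted p = 0.727) in spleen, with 3 of 3 high-altitude libraries above every low-altitude library in spleen. Without goat high 2 the log2 fold change in muscle was 0.51, and without high 1 that in spleen was 0.63. let-7e with both arms summed was separated upward in RPM in heart, where chi-let-7e-5p had a library at 0 in each altitude, with 85.4, 98.7 and 108 RPM at high and 65.7, 51.1 and 50.9 RPM at low altitude, and in spleen, with 729.5, 465.6 and 509.9 against 329.8, 208 and 320.3 RPM. On TMM-scaled levels the heart groups overlapped, with high heart 1 at 92.4 and low heart 1 at 99.2. Its edgeR log2 fold change was 0.63 (SE 0.29, adjusted p = 0.698) in heart, 1.01 (SE 0.41, adjusted p = 0.723) in spleen and, with overlap, 1.96 (SE 0.81, adjusted p = 0.727) in muscle. chi-let-7c-5p had 808, 1138 and 429 RPM at high and 1119, 1468 and 1657 RPM at low altitude in lung, with overlap, and a log2 fold change of -0.76 (SE 0.30, adjusted p = 0.841) in edgeR, which was -0.50 without goat high 3. let-7a was separated in heart alone, at 1729.9, 1649 and 1862 RPM at high and 1232, 994 and 799 RPM at low altitude, and its log2 fold change there was 0.48 (SE 0.30, adjusted p = 0.794) in edgeR. In RPM chi-let-7d-5p, chi-let-7g-5p and chi-let-7i-5p overlapped between altitudes in all 6 tissues. The guide form with the smallest p in liver was chi-let-7i-5p, with 2405, 5452 and 2566 RPM at high and 3965, 4696 and 5844 RPM at low altitude and an edgeR log2 fold change of -0.46 (SE 0.34, adjusted p = 0.743), which was -0.26 without goat low 3.

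As shares of the guide-form counts, let-7c, let-7d, let-7f, let-7g and let-7i were each separated by altitude in more tissues than as levels. chi-let-7f-5p took 70.2, 72.6 and 68.3% of the guide-form counts in the high-altitude hearts and 55.9, 52.2 and 56.1% in the low-altitude hearts. In muscle its share was 71.6, 71.3 and 69.3% against 52.4, 55.5 and 54.1%, and in spleen 60.5, 64.8 and 63.7% against 44.2, 29.6 and 40.6%. Lung had 43.0, 46.6 and 55.1% against 33.8, 35.6 and 33.0%. These 4 tissues were separated with the high-altitude goats above. Kidney, with 49.6, 69.8 and 55.6% against 49.7, 40.6 and 42.7%, and liver, with 67.6, 75.8 and 56.3% against 52.7, 58.6 and 60.3%, overlapped, and the mean at high altitude was the larger in all 6 tissues. chi-let-7d-5p took the smaller share at high altitude in all 6 tissues with no overlap, for example 0.882, 0.827 and 1.11% against 2.18, 2.01 and 1.93% in heart and 0.880, 1.02 and 0.816% against 1.53, 1.87 and 1.52% in muscle. The share of chi-let-7g-5p was below in 5 tissues and that of chi-let-7i-5p in 4, each separated, with a smaller high-altitude mean in all 6. Shares add up to the whole, so a larger one lowers the others. The tissues came from the same goats, and the counts of separated tissues have no background from other miRNAs. The ratio of chi-let-7f-5p to let-7a had a larger high-altitude mean in 6 of 6 tissues and was separated in 2, heart (7.63, 11.3 and 6.79 against 5.02, 4.87 and 6.63) and spleen (3.53, 5.63 and 4.41 against 2.29, 1.63 and 2.28). In liver that held through goat high 2, without which the difference of the means, high minus low, was -0.278.

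chi-let-7d-3p, the strand opposite the let-7d guide, was separated upward at high altitude in more tissues than any other member, 5 of 6. It had 26.1, 39.4 and 48.3 RPM at high and 6.96, 9.28 and 10.04 RPM at low altitude in heart, 32.4, 95.0 and 28.9 against 1.42, 17.9 and 9.86 in kidney and 42.1, 52.8 and 18.9 against 4.14, 6.61 and 4.40 in liver. Lung had 11.9, 15.8 and 11.1 RPM against 5.47, 7.28 and 5.99, and muscle 23.4, 312 and 19.5 against 16.8, 11.2 and 12.2. In these 5 tissues the groups were separated. Of 14 members, 3 were separated upward in heart (8.13% of all features), 2 in muscle (3.17%), 2 in spleen (4.46%), 1 in kidney (1.73%), 1 in liver (2.37%) and 1 in lung (2.3%). Spleen had 15.6, 58.5 and 70.7 RPM against 24.7, 12.8 and 9.56, with high spleen 1 among the low-altitude libraries. The edgeR log2 fold change was 2.97 (SE 0.57, adjusted p = 0.184) in liver, 2.52 (SE 0.72, adjusted p = 0.735) in kidney, 1.85 (SE 0.38, adjusted p = 0.228) in heart, 1.23 (SE 0.49, adjusted p = 0.841) in lung, 2.96 (SE 1.02, adjusted p = 0.701) in muscle and 1.51 (SE 0.66, adjusted p = 0.727) in spleen. DESeq2 called it in 3 tissues, liver, at 3.07 (SE 0.48, adjusted p = 2.68e-08), heart, at 1.95 (SE 0.41, adjusted p = 8.16e-05), and kidney, at 2.59 (SE 0.78, adjusted p = 0.0201). With edgeR's filter on low counts it was among 6 of 455 features called in liver, at 2.99 (SE 0.43, adjusted p = 0.0437), and from 1 edgeR fit over 36 libraries it was among the 36 features called in muscle, at 2.98 (SE 0.77, adjusted p = 0.0317). In muscle goat high 2 had the highest level by far, and without it the log2 fold change within muscle was 0.996, under the minimum fold change; that fit over 36 libraries was not repeated without this goat.

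As a percent of both let-7d arms, chi-let-7d-3p stood at 26.8, 25.3 and 31.2% in the high-altitude kidneys and 2.39, 5.24 and 2.68% in the low-altitude kidneys. Liver had 10.2, 7.02 and 10.8% against 1.20, 0.955 and 0.582% and heart 13.6, 15.7 and 19.0% against 2.80, 4.74 and 5.23%. In muscle the percent was 15.6, 35.5 and 13.1% against 9.78, 6.15 and 5.79%, and in lung 2.09, 1.49 and 4.58% against 0.774, 0.701 and 0.550%. These 5 tissues were separated upward, as were 14.4% of 215 precursors in kidney, 11.2% of 214 in liver, 19% of 211 in heart, 11.4% of 210 in muscle and 11.9% of 219 in lung. Spleen, where 17.9% of 212 precursors were, overlapped, with 1.52, 11.6 and 9.78% against 3.57, 2.59 and 1.15%. The 3p percents of other let-7 precursors were separated downward in some tissues: let-7i in heart, lung and spleen, let-7f in heart, muscle and spleen, and let-7g in heart, liver and muscle. Of all precursors, 9.48% were separated downward in heart, 9.59% in lung, 10.8% in spleen, 3.81% in muscle, 6.54% in liver and 7.44% in kidney.

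chi-let-7i-3p and chi-let-7g-3p ran the other way, with a smaller high-altitude mean in all 6 tissues. chi-let-7i-3p had 9.94, 31.8 and 9.90 RPM at high and 43.8, 77.3 and 52.9 RPM at low altitude in lung. In liver it had 23.3, 20.1 and 11.0 against 25.7, 47.8 and 38.0 RPM. The high-altitude libraries were below the low-altitude libraries in both tissues, as they were for chi-let-7g-3p, at 14.7, 12.5 and 8.84 against 18.8, 26.4 and 23.2 RPM in liver and 5.80, 8.13 and 5.59 against 8.67, 11.5 and 11.7 RPM in lung. These were 2 of 14 members separated downward in each, against 5.97% of all features in liver and 5.97% in lung. In heart, kidney, muscle and spleen 0 of 14 were, against 4.03%, 3.67%, 5.18% and 5.54%. In lung the edgeR log2 fold change of chi-let-7i-3p was -1.72 (SE 0.48, adjusted p = 0.841), with 3 of 3 high-altitude libraries below every low-altitude library, and DESeq2 called it at -1.68 (SE 0.49, adjusted p = 0.0202). In muscle its log2 fold change of -0.04 (SE 0.61, adjusted p = 1) in edgeR changed sign without goat high 1 (0.016), high 3 (0.32) or low 2 (0.021), and with edgeR's filter on low counts (0.022). chi-miR-98-3p overlapped in RPM in all 6 tissues, with 764, 649 and 559 RPM at high and 619, 285 and 535 RPM at low altitude in spleen, its highest tissue. By edgeR the difference between altitudes depended on the tissue for 0 of 14 members (0.216% of all features), with 1 member at an unadjusted p under 0.05, and DESeq2 called 0 of 14 members and 52 features.

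These separations are in RPM. On TMM-scaled levels, a scale added after seeing the data, each separation of the 14 members and of the family total held, and some were new. In heart chi-let-7d-5p and chi-let-7g-3p were then also separated downward, which made 2 of 14 members (6.55% of all features), and 3 were again separated upward (4.68%). In lung chi-let-7f-5p was also separated upward, 2 of 14 (3.53%), and chi-let-7c-5p downward, 3 of 14 (5.25%). chi-let-7e-3p in kidney was separated downward, 1 of 14 (6.76%), and chi-miR-98-3p in muscle upward, 3 of 14 (3.24%).

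Marker miRNAs of other cell types were read beside these levels. The leukocyte list, with 5 of 5 listed and conserve-chi-miR-142-5p the most abundant, summed to 3509, 2002 and 2818 RPM at high and 1924, 1885 and 1531 RPM at low altitude in heart, where chi-let-7f-5p and let-7a were also separated upward. In spleen the sum was 17602, 67519 and 62123 against 36569.8, 35256 and 40326 RPM, and the library with the lowest sum, high spleen 1, had the highest family total. Muscle had 805, 2001 and 1656 against 867, 899 and 1424 RPM, overlapping. The red cell list, with 3 of 4 listed and conserve-chi-miR-486-5p the most abundant, summed to 23097, 12382 and 53788 against 15592, 17879 and 11880.1 RPM in heart, 16925, 43024 and 29159.6 against 14319, 20179 and 13738 in muscle and 11988, 837 and 998 against 4437, 4098 and 7646 in spleen, and it was at 0 in high lung 2. The endothelial list, with 2 of 2 listed and chi-miR-126-3p the most abundant, overlapped between altitudes in all 6 tissues, at means of 7596 RPM in muscle to 21318 in lung. The muscle list was lower at high altitude in muscle, at 238582, 246085 and 182812 RPM against 258292, 277656 and 288443, with no overlap. The heart list was separated upward in kidney, at 72.3, 62.4 and 170.0 RPM against 4.05, 31.0 and 10.4, in liver, at 287, 227 and 187 against 17.8, 141 and 19.5, and in lung, at 37.8, 20.1 and 105 against 5.06, 17.9 and 10.01. Also separated upward were the muscle list in kidney (means of 828 against 235 RPM), the liver list in lung (73.7 against 9.48), the kidney list in heart (196 against 113) and lung (235 against 137), and the ciliated-cell list in heart (9.31 against 2.54), kidney (22.8 against 6.67) and spleen (35.2 against 9.34), and the red cell list was separated downward in liver (3669 against 9234). The part of these cells, or of tissue taken along in sampling, in the let-7 levels was not tested.

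let-7 genes have miRNA genes beside them. In the ARS1.2 annotation, with 9 let-7 and miR-98 genes among 264 miRNA genes, MIRLET7C lies between MIR125B and MIR99A, MIRLET7E next to MIR99B, MIRLET7F next to MIRLET7D, and MIRLET7A next to MIRLET7B. Of 12 listed names of miR-99, miR-100 and miR-125, edgeR called 2, chi-miR-99a-5p and chi-miR-100-5p, lower at high altitude in spleen (0.144% of all features) and 0 in the other 5 tissues. At an unadjusted edgeR p under 0.05 there were 2 names higher and 4 lower in heart, where 6.76% of all features were under it in either direction, 4 lower in liver (4.24%), 4 lower in spleen (5.68%), 3 lower in kidney (4.68%), 1 lower in muscle (6.33%) and 0 in lung (4.82%). DESeq2 called 1 higher and 3 lower in heart (15 and 21 of all 1390 features). It called 4 lower in liver (21 features), 4 lower in spleen (22), 1 lower in kidney (16) and 0 in muscle and lung. chi-miR-100-5p, a relative of miR-99 known to lower mTOR, had 1349.6 ± 586 RPM at high and 15246 ± 3728 RPM at low altitude (SD, n = 3) in spleen, and an edgeR log2 fold change of -3.56 (SE 0.38, adjusted p = 0.0324), with 3 of 3 high-altitude libraries below every low-altitude library. It did not pass without goat high 2 (adjusted p = 0.153), low 1 (0.117), low 2 (0.114) or low 3 (0.204), and chi-miR-99a-5p did not pass without low 2 (0.0503) or low 3 (0.0735). With a replicate block neither passed in edgeR (adjusted p = 0.218 and 0.165). That block joins different goats of the altitudes by their number, and 0 of 1390 features passed in spleen under it. By library size only chi-miR-100-5p did not pass (0.0786). The fold changes kept their size, at a log2 of -3.89 to -3.41 for chi-miR-100-5p and -4.30 to -4.02 for chi-miR-99a-5p with 1 goat left out, and -3.60 and -4.19 with the block. chi-let-7c-5p had 1071, 423 and 494 RPM at high and 1105, 894 and 1182 RPM at low altitude there. In RPM its groups overlapped in 6 of 6 tissues, while those of chi-miR-99a-5p, of the gene beside it, were separated downward in 4 of 6. These were heart (4.03% of all features), kidney (3.67%), liver (5.97%) and spleen (5.54%). chi-miR-125a-5p was separated downward in 5 tissues, the same ones and muscle (5.18%), and upward in 1, lung (2.3%). Over 36 libraries, which share tissues and goats, the Spearman correlation of RPM with chi-let-7c-5p was -0.0417 for chi-miR-99a-5p and -0.187 for chi-miR-125b-5p. chi-let-7f-5p and chi-let-7d-5p, of adjacent genes, had 0.720. That was the lowest value of chi-let-7d-5p with another guide form. The others ran from 0.841 with chi-let-7c-5p to 0.898 with let-7a, taking let-7e with both arms summed. chi-miR-99b-5p was at 0 in 23 libraries.

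Among the guide forms, over the same 36 libraries, the Spearman correlation of RPM was highest between let-7a and let-7e with both arms summed, at 0.953, and lowest between chi-let-7c-5p and chi-let-7f-5p, at 0.532. The 5 miRNAs outside the family whose level was most like the family total, of 294 with a mean of at least 10 RPM, were chi-miR-106b-3p (Spearman correlation 0.873), chi-miR-92a-3p (0.871), chi-miR-25-3p (0.870), conserve-chi-miR-7134-3p (0.833) and chi-miR-15a-5p (0.826). The median of the 294 was 0.246, and libraries share tissues, goats and the RPM scale. With TMM-scaled levels the 5 correlations were 0.778, 0.621, 0.676, 0.591 and 0.699. On those levels, and by Pearson correlation, 4 of the 5 were again among the 5 highest.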

How the data were processed

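Small RNA libraries were prepared with TruSeq Small RNA kits and sequenced on an Illumina HiSeq. The authors called bases with CASAVA 1.8, mapped reads with Bowtie at 0 mismatches, counted known and new miRNAs in miRDeep2 with miRBase 21 as the reference, and left out those that never reached 3 reads in 1 library. The deposited values are raw counts per mature miRNA and library, with no normalization. Groups came from the deposited sample labels. RPM was computed over the sum of a library's counts.

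Counts of chi-let-7a-5p and chi-let-7a-3p were summed, and all 1390 features were fitted with edgeR 4.0.16 in R 4.3.3 (TMM, glmQLFit, glmQLFTest, Benjamini-Hochberg adjusted p). Altitude was tested within each tissue, and calls needed a log2 fold change of 1.5 or more in size besides an adjusted p under 0.05. Tissues and the interaction were tested in 1 fit of 12 groups over 36 libraries, with 5 degrees of freedom and an adjusted p under 0.05. Alternatives were DESeq2 1.42.0, RLE size factors, library size only, filterByExpr, let-7a names kept apart, arms of every precursor summed, no minimum fold change, 1 fit over 36 libraries, a replicate block, leaving out each goat, and other scales for the family total. Summing the let-7e arms was added after seeing the data, as were TMM-scaled levels for separations by altitude and the median and the leave-outs for the let-7f to let-7a ratio and the chi-let-7d-3p percent. Simulated data with added changes were used to test the fits. Python 3.11.15, NumPy 2.4.6, SciPy 1.17.1 and pandas 2.3.3 were used for the rest.

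Named in each tissue were the guide form with the smallest p and every guide form with an unadjusted p under 0.05 for altitude, the guide forms' highest and lowest tissues, neighbours of let-7 genes, and the 5 miRNAs most correlated with the family total on log2(RPM + 1). Members outside the guide forms were named after their values were seen. The marker lists were liver, skeletal muscle, heart, leukocyte, kidney, lung, red cell and endothelium. Members and lists were chosen with earlier results of these data known. Tissues of 1 goat are paired by design: over 307 miRNAs of at least 10 RPM, deviations from the group mean had a mean correlation of 0.0765 in 90 pairs of libraries of the same goat (-0.417 to 0.537) and -0.0375 in 180 pairs of other goats. The ARS1.2 annotation gave gene names and neighbours only, since the authors used ARS1, and seeds of other miRNAs were not analysed here.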

Additional observations from a re-analysis of the deposited data

Results flagged for a closer look

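In 20 of 90 sets of 6 libraries, each a member or the family total in 1 tissue, the highest or lowest library stood apart, with most of the range of the 6 lying between it and its nearest neighbour. Among 6 like libraries chance gives about 1 in 20 such sets. Each set here pools both altitudes, so that rate is not a fair mark for these sets. The sets also share libraries and are not independent: 9 of the 20 came from the muscle library of goat high 2.

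Most of these were libraries of goat high 2, in RPM with the tissue median after each. In muscle this goat had a family total of 56255 (median 13986), let-7a at 9042 (1584), chi-let-7d-5p at 567 (162), chi-let-7e-5p at 686 (70.0), chi-let-7f-5p at 39578 (8701) and chi-let-7g-5p at 2823 (1471). Its muscle also had chi-let-7c-3p at 2.67 (0.717), chi-let-7d-3p at 312 (18.1) and chi-let-7f-3p at 30.8 (11.5). In liver its family total was 97195 (45001), chi-let-7e-5p 881 (185) and chi-let-7f-5p 72937 (27417). In kidney chi-let-7f-5p was at 23895 (5491), chi-let-7d-3p at 95.0 (23.4) and chi-let-7f-3p at 73.0 (26.9). In heart chi-let-7i-5p was at 2776 (1909) and chi-let-7f-3p at 23.7 (15.2).

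The others were chi-let-7e-3p in high liver 1 at 429.6 RPM (4.53), where chi-let-7e-5p was at 0, and chi-let-7g-3p, low in high heart 3 at 9.77 RPM (13.7) and in high spleen 1 at 3.15 RPM (19.2). No cause was tested.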

How the results depend on the processing

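Guide forms called moved under these alternatives, and the cause was not tested: high against low altitude, 1 in muscle from 1 fit over 36 libraries (36 of 1390 features, against 1) and 1 in spleen by DESeq2 (36 features, against 2), each against 0; heart 1 and lung 2 with the names of let-7a kept apart, against 2 and 4; kidney 1 and muscle 2 by library size only (46 and 155 features lower, against 55 and 112), against 5 and 1; and spleen 2 with the arms of every precursor summed, against 4. The kidney calls lost by library size only had log2 fold changes of -1.107 to -0.75, against -1.14 to -0.75 with TMM. With 1 goat left out, the counts ran from 3 to 5 among tissues, 1 to 4 in kidney, 0 to 2 in liver, 2 to 2 in lung, 0 to 1 in muscle and 1 to 4 in spleen, with fewer libraries tested. They were 0 for altitude in each tissue and for the interaction without each goat.

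The family total over a library total without the 10 most abundant other miRNAs averaged 120011 RPM in lung, 116109 in spleen, 113808 in liver, 82534 in muscle, 54056 in kidney and 44002 in heart, since the denominator is smaller; lung then ranked above spleen and liver. With its names kept apart, chi-let-7a-5p had a log2 fold change opposite in sign to the sum in heart, 2.07 (SE 1.59, adjusted p = 0.774), and kidney, 3.49 (SE 1.60, adjusted p = 0.182), and did not pass; in lung, where it was at 0 in 5 of 6 libraries, the value of -7.06 had an SE of 34700 and could not be estimated. The altitude log2 fold change of chi-let-7i-3p in muscle was 0.022 with filterByExpr, and -0.61 to 0.32 with 1 goat left out. On TMM-scaled levels 2 members were separated downward by altitude in heart and 1 in kidney, against 0 in RPM, and 2 upward in lung, against 1; the cause was not tested. Counting each named fold change once per alternative, for altitude 306 kept direction and side of the threshold, 8 passed it and 4 changed sign. For tissues 272 kept both, 80 no longer passed and 3 changed sign.

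Replicate numbers of the altitudes belong to different goats. As a replicate block they left 0 guide forms and 0 of 1390 features called for altitude in each tissue. Libraries of the same number had a mean correlation of 0.0724 over 18 pairs (-0.462 to 0.515), over 0.1 in 7; the 3 pairs in heart had a mean of 0.414 (0.274 to 0.515) and those in kidney -0.282 (-0.462 to -0.110), and 17 of 36 libraries correlated best with their own number. With goat as a block in the tissue tests, chi-let-7e-3p in heart had an adjusted p of 0.154, and no other call of a named member was lost. Of the 7 remaining members, DESeq2 called 2 higher and 1 lower in heart (111 and 145 of 1390 features), 0 and 4 in lung (148 and 130), 2 and 1 in spleen (155 and 143), 2 and 1 in muscle (143 and 155), 1 and 1 in liver (115 and 115), and 1 and 0 in kidney (152 and 132).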
